A study of Mus musculus with 12 samples.

Results

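Cyclin-dependent kinase inhibitors are small proteins that hold the cell cycle engine in check, and the mouse genome encodes 7 of the classical ones. All 7, Cdkn1a, Cdkn1b, Cdkn1c, Cdkn2a, Cdkn2b, Cdkn2c and Cdkn2d, were followed here by gene symbol in podocytes with and without Nsd2, out of 22290 genes listed in both deposited count tables. All 7 passed the low-count filter at 20 and at 28 weeks.

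The family has 2 branches. The 3 CIP/KIP proteins p21 (Cdkn1a), p27 (Cdkn1b) and p57 (Cdkn1c) bind complexes of cyclins with their kinases and block chiefly the kinase Cdk2. The 4 INK4 proteins p16 (one product of Cdkn2a), p15 (Cdkn2b), p18 (Cdkn2c) and p19 (Cdkn2d) bind Cdk4 and Cdk6 themselves and keep the D cyclins from activating them. Both branches keep the retinoblastoma protein in its active form, in which it silences E2F target genes. Mature podocytes, the epithelial cells wrapped around the glomerular capillaries, do not normally divide, and p27 and p57 are textbook markers of that resting state. Cdkn1c is imprinted and expressed mainly from the maternal allele. Cdkn2a and Cdkn2b are neighbours under polycomb control and are widely used as signs of senescence.

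RNA sequencing measured gene expression in primary podocytes from mice in which a high-fat diet and streptozotocin had induced diabetes (HFD/STZ model). The series asks what Nsd2, a methyltransferase of lysine 36 on histone H3, does to gene expression in podocytes at an early and an advanced stage of diabetic kidney damage. The 4 groups were knockouts of genotype Cre+/Nsd2fl/fl at 20 weeks of age (20W KO), floxed controls of genotype Cre-/Nsd2fl/fl at 20 weeks (20W Con), and the same genotypes at 28 weeks (28W KO and 28W Con). Each group held 3 libraries, and all 12 libraries carry the same batch label. Every group was diabetic and every group carried floxed Nsd2 alleles, so no value here compares diabetic with healthy podocytes. The series text describes the knockout as specific to podocytes, without naming the promoter that drives Cre in the sources used here. Whether the 3 libraries of a group are 3 animals is not said in the labels. The p-values below therefore rest on the spread between libraries, part or all of which may be technical.

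Promoter windows of 300 bases, 250 before and 50 after an annotated start, were taken from RefSeq (GRCm38.p6) for the members whose transcripts moved or varied together. They are given 5′ to 3′ on the gene's own strand, and capitals mark 2 motifs searched on both strands, the GC box GGGCGG and the E2F-type motif TTTNNCGC. The first pair is Cdkn2c (chr4:109666707-109667006, minus strand) and Cdkn2d (chr9:21291160-21291459, minus strand), the INK4 members that were higher in knockouts.
Cdkn2c: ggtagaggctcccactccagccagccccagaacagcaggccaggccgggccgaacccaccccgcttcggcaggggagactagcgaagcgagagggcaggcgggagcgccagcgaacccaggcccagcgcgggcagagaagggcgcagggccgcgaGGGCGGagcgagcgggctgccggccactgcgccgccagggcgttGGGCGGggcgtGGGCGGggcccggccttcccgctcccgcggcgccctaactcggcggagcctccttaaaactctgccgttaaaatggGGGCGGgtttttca
Cdkn2d: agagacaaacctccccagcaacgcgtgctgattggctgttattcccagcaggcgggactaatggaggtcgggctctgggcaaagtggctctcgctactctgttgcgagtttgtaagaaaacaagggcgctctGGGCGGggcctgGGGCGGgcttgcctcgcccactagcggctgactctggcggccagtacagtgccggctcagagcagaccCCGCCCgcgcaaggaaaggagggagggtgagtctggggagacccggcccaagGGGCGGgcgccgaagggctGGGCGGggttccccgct
The next 3 come from the Cdkn2a-Cdkn2b locus, where all transcripts run on the minus strand. Cdkn2a has 2 promoters, whose products share exons in different reading frames: the upstream one (chr4:89294570-89294869) starts the p19Arf transcript, which encodes 169 residues, and the downstream one (chr4:89282143-89282442) starts the p16 transcript, which encodes 168 residues. The Cdkn2b window is chr4:89310983-89311282.
Cdkn2a, Arf start: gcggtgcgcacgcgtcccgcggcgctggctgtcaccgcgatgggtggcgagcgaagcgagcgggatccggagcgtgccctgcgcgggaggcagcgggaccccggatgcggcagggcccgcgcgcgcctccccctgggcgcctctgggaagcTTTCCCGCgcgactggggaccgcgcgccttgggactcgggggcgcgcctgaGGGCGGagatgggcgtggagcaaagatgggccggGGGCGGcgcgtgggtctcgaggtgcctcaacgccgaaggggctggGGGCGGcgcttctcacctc
Cdkn2a, p16 start: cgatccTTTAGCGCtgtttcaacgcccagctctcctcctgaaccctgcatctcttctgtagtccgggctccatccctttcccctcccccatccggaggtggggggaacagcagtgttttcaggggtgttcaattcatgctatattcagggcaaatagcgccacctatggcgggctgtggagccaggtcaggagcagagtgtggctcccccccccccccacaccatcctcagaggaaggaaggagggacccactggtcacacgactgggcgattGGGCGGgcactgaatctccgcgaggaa
Cdkn2b: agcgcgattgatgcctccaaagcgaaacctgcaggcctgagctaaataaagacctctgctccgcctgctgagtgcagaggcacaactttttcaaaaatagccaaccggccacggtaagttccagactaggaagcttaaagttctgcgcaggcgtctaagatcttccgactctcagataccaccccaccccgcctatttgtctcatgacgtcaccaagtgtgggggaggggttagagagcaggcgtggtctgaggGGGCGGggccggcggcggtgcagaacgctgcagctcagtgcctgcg
The Cdkn2c window shown held 4 GC boxes and the Cdkn2d window 5, and neither held the E2F-type motif. A second Cdkn2c start has its own window (chr4:109665323-109665622), not shown, which held neither motif. Both Cdkn2a windows held 1 E2F-type motif, with 3 GC boxes at the Arf start and 1 at the p16 start, and the Cdkn2b window held 1 GC box. RefSeq windows were matched for 6 of the 7 members, 9 windows in all, and 7 of the 9 held a GC box while 2 held the E2F-type motif. Among 32851 mouse promoter windows of the same length, 35.7% held the GC box and 5.17% the E2F-type motif. These matches describe the letters of the windows and were not tied to any change. The deposited tables give 1 count for the whole of Cdkn2a, so p16 and p19Arf cannot be told apart in what follows.

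Nsd2 itself had 51.7, 34.0 and 44.9 counts-per-million (CPM) in 20W KO libraries 1 to 3, against 94.2, 66.5 and 79.0 CPM in 20W Con libraries. At 28 weeks it had 35.2, 35.2 and 42.8 CPM in KO libraries and 87.1, 77.6 and 80.0 CPM in Con libraries. The groups did not overlap at either age, and Nsd2 fell by 0.88 on the log2 scale at 20 weeks (SE 0.214, edgeR adjusted p = 0.0402) and by 1.11 at 28 weeks (SE 0.127, adjusted p = 0.00431). The sources used here do not name the deleted exons, so reads from the rest of the transcript can remain in a knockout.

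Total counts ran from 31405349 to 38989180 per library. All 12 podocyte markers on the list used here had reads in every library, but Nphs1, the slit diaphragm protein nephrin, was low throughout at 0.914 to 15.2 CPM. Markers of other cells were present too. In bulk samples, fewer cells of a type and less RNA per cell cannot be told apart. The summed podocyte markers were 2121 to 2756 CPM in 20W KO and 983 to 1589 CPM in 20W Con, and 867 to 2383 CPM in 28W KO against 1451 to 2264 CPM in 28W Con. The 11 mesangial and smooth muscle markers summed to 9664 to 13580 CPM in 20W KO against 4262 to 4815 CPM in 20W Con, and to 6964 to 15680 CPM in 28W KO against 2894 to 3177 CPM in 28W Con. The 15 tubule markers summed to 204 to 1796 CPM in 20W KO against 2677 to 5750 CPM in 20W Con, and to 73.0 to 7182 CPM in 28W KO against 3352 to 6552 CPM in 28W Con, with up to 4 of them at 0 in a library. The keratin Krt8 made up 77.2% of the tubule sum of 28W KO library 1, and without it the tubule sums were 43.1 to 1640 CPM in 28W KO and 3240 to 4180 CPM in 28W Con. The mesangial sum was thus higher and the tubule sum lower in every 20W KO library than in every 20W Con library. One replicate pair stood apart from all others: 28W Con libraries 2 and 3 differed far less (biological coefficient of variation 0.0483) than the other pairs of replicates (0.219 to 0.414). They differed by more than counting noise (mean chi-square per gene 5.1), which repeat libraries of 1 sample can also do, so they may be technical replicates. They were kept as 2 libraries, as labelled, and the 28-week tests rest on that: 3183 genes were called at 28 weeks, against 1299 with their counts summed. Values with the counts summed are given where this ends a member's call.

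Per unit of length, the family was led by Cdkn1a in every group. Its mean level was 253 FPKM (read counts scaled by gene length and library total, as the authors deposited them) in 20W KO and 336 FPKM in 20W Con, and 264 FPKM in 28W KO and 261 FPKM in 28W Con. Cdkn1a, a direct target of p53, made up 43.1% to 78.4% of the FPKM summed over the 7 members in the 12 libraries. Cdkn2b came next in each group, followed by Cdkn2a. Their ranges overlapped each other in 3 groups and were apart in 20W KO, where Cdkn2b had 36.5 to 56.0 FPKM and Cdkn2a 11.8 to 35.9 FPKM. In both control groups the order below them was Cdkn1c, Cdkn1b, Cdkn2d, Cdkn2c, with no overlap between neighbours from Cdkn1c downwards.

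The place of Cdkn1c differed between the genotypes. It was next to last at 6.95 FPKM in 20W KO, against 30.2 FPKM and a place above Cdkn1b in 20W Con. At 28 weeks it was again next to last at 8.49 FPKM in KO, against 31 FPKM and a place above Cdkn1b in Con. In both knockout groups its range overlapped that of the lowest member, Cdkn2c, which averaged 5.40 FPKM in 20W KO and 5.56 FPKM in 28W KO. Cdkn2d, at 15.6 FPKM in 20W KO and 17.7 FPKM in 28W KO, overlapped Cdkn1b in both knockout groups, and in both control groups it lay below Cdkn1b without overlap. The INK4 members together held 12.9% to 51.6% of the summed FPKM, with the lowest share in 20W Con library 1 and the highest in 28W KO library 1.

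**Figure D1:**
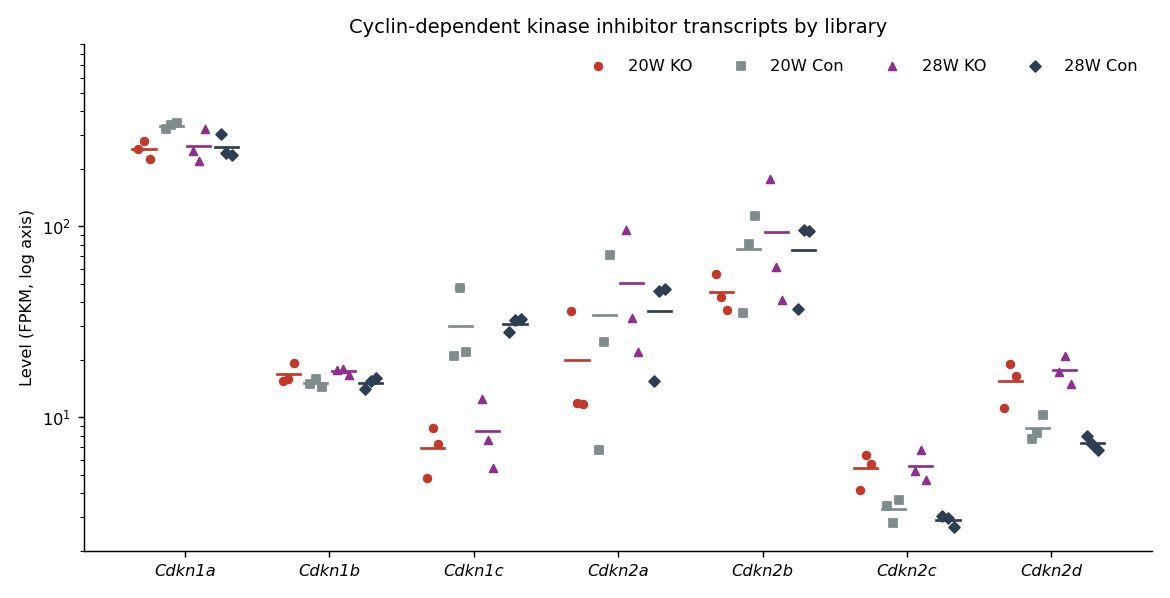
Level of each inhibitor in all 12 libraries (FPKM, log axis). Points are libraries, short lines are group means, and each gene shows 20W KO, 20W Con, 28W KO and 28W Con in that order. Cdkn1c lies lower and Cdkn2c and Cdkn2d lie higher in the knockout libraries of both ages, while the genotypes overlap for Cdkn2a and Cdkn2b.

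Loss of Nsd2 went with lower Cdkn1c and higher Cdkn2c and Cdkn2d, and the other members did not pass the edgeR test at either age or in the average. At 20 weeks 1 of the 7 members was called lower at an edgeR adjusted p below 0.05, against 5.13% of all 14853 genes tested, and none was called higher, against 4.79% of all genes. At 28 weeks 1 member was called lower (11.9% of all 15011 genes) and 2 were called higher (9.33% of all genes). In the model of all 12 libraries, the knockout effect averaged over both ages was called lower for 1 member (16.5% of 15662 genes) and higher for 2 (12.1%). In CPM the knockout and control libraries did not overlap for 5 of the 7 members at 20 weeks and for 4 of 7 at 28 weeks, where 32.2% and 42.2% of all genes did not overlap. The median log2 fold change over all genes was 0.012 at 20 weeks and 0.067 at 28 weeks.

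Cdkn1c encodes p57, the inhibitor that marks podocytes leaving the cell cycle during glomerular development. It had 9.68, 17.6 and 14.1 CPM in 20W KO libraries 1 to 3, against 37.4, 90.2 and 42.0 CPM in 20W Con libraries. Its 28-week levels were 24.8, 15.1 and 10.7 CPM in KO libraries and 53.6, 59.5 and 60.7 CPM in Con libraries. Every knockout library was below every control library of its age, and the highest knockout value of all, in 28W KO library 1, was also below the lowest control value of either age. Cdkn1c fell by 2.03 on the log2 scale at 20 weeks (SE 0.38, edgeR adjusted p = 0.0162), to 0.244 of the control level. It fell by 1.78 at 28 weeks (SE 0.306, adjusted p = 0.0108), to 0.291 of the control level. Averaged over both ages the fall was 1.94 (SE 0.265, adjusted p = 0.000488), and this call held in all 19 alternatives run. At 20 weeks the call was lost without KO library 3 (log2 fold change -2.04, adjusted p = 0.0723).

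Several epithelial markers, though not all, were also lower in knockouts, where Cdkn1c fell. Of the tubule markers 5 of 11 tested were called lower at 20 weeks, beside 5.13% of all genes. At 28 weeks 1 of 13 was called lower, beside 11.9% of all genes, and none was called higher at either age. Krt18, an epithelial keratin, was 31.6 to 133 CPM in 20W KO and 751 to 1619 CPM in 20W Con, and 9.23 to 213 CPM in 28W KO and 714 to 1102 CPM in 28W Con, without overlap. Cdh1, the epithelial cadherin, was 9.96 to 251 CPM in 20W KO and 160 to 340 CPM in 20W Con, which overlapped, and 2.18 to 38.0 CPM in 28W KO and 509 to 805 CPM in 28W Con. Krt18 was called at 20 weeks (edgeR adjusted p = 0.00948) and not at 28 weeks (adjusted p = 0.066). Epcam overlapped at both ages, at 9.84 to 244 CPM in 20W KO and 61.5 to 288 CPM in 20W Con. At 28 weeks it was 0.527 to 478 CPM in KO and 229 to 375 CPM in Con. Krt8 had a log2 fold change of 0.25 at 28 weeks (adjusted p = 0.94). The part of epithelial cells in the Cdkn1c result was not tested at either age. The podocyte markers were summed higher in every 20W KO library than in any 20W Con library, and their sums overlapped at 28 weeks. Of these 12 markers 7 were called higher at 20 weeks, beside 4.79% of all genes, and none lower. At 28 weeks none was called higher and 3 were called lower, beside 11.9% of all genes. These were Nphs1 (log2 fold change -2.46, edgeR adjusted p = 0.024), Cd2ap (-1.38, adjusted p = 0.0368) and Npnt (-0.97, adjusted p = 0.00647). Without KO library 1 of both ages, an alternative chosen after the data were seen, the averaged Cdkn1c effect was -2.001 (adjusted p = 0.000434). Cdkn1c lies at chr7:143458339-143461050 on the minus strand (GRCm38, GENCODE M21), and 625 bases of its exons are shared with the antisense gene Gm44732. No source used here gives the strand setting of the counting, so reads of that antisense gene cannot be told apart from those of Cdkn1c.

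Cdkn1a encodes p21, the inhibitor that p53 induces after DNA damage. It had 536, 594 and 465 CPM in 20W KO libraries, against 612, 681 and 700 CPM in 20W Con libraries. The 28-week libraries had 523, 465 and 668 CPM in KO libraries and 620, 466 and 468 CPM in Con libraries. The knockouts lay below the controls without overlap at 20 weeks and overlapped them at 28 weeks. The log2 fold change was -0.32 at 20 weeks (SE 0.16, edgeR adjusted p = 0.263) and 0.09 at 28 weeks (SE 0.193, adjusted p = 0.784), and neither passed the test. Without 28W KO library 3 the later value was -0.11 (adjusted p between 0.432 and 0.974 over the 6 left-out libraries). The gene lies at chr17:29090976-29100727 on the plus strand, and 273 bases of its exons overlap a gene on the other strand, AC167363.2.

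Cdkn1b encodes p27, an inhibitor controlled largely through degradation of the protein. Its transcript had the smallest spread of the family, with an SD of 0.156 in log2 CPM over the 12 libraries. It had 38.7, 39.9 and 46.8 CPM in 20W KO libraries and 33.4, 37.3 and 34.6 CPM in 20W Con libraries. Its 28-week levels were 44.0, 44.4 and 40.8 CPM in KO libraries and 33.6, 35.2 and 37.3 CPM in Con libraries. All 6 knockout libraries were above all controls of their age, by a small margin. The log2 fold change was 0.25 at 20 weeks (SE 0.157, edgeR adjusted p = 0.38) and 0.28 at 28 weeks (SE 0.11, adjusted p = 0.123). The average over both ages, 0.24 (SE 0.0851), had an adjusted p of 0.06 and passed the threshold in 4 of the 19 alternatives. Cdkn1b lies at chr6:134920401-134925513 on the plus strand.

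Cdkn2c and Cdkn2d encode p18 and p19, INK4 proteins found in resting and differentiating cells of many tissues. Cdkn2c had 9.76, 14.9 and 13.0 CPM in 20W KO libraries, against 7.18, 6.20 and 8.24 CPM in 20W Con libraries. The 28-week values were 12.2, 15.7 and 10.8 CPM in KO libraries and 6.88, 6.39 and 5.82 CPM in Con libraries. The groups did not overlap at either age. Cdkn2c rose at 28 weeks with a log2 fold change of 1.02 (SE 0.201, edgeR adjusted p = 0.0166), and its 20-week value of 0.80 (SE 0.242, adjusted p = 0.0785) did not pass. The 28-week call was lost without Con library 2 (adjusted p = 0.0717), without Con library 3 (adjusted p = 0.0784), and with those closely alike libraries summed (adjusted p = 0.0729). The 20-week value passed without KO library 1 (log2 fold change 0.96, adjusted p = 0.0364) and with DESeq2 (0.81, adjusted p = 0.0174). Averaged over both ages Cdkn2c rose by 0.87 (SE 0.142, adjusted p = 0.00117), and this call held in all 19 alternatives.

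Cdkn2d had 14.9, 25.6 and 21.3 CPM in 20W KO libraries, against 9.20, 10.4 and 13.1 CPM in 20W Con libraries. Its levels at 28 weeks were 22.9, 27.7 and 19.5 CPM in KO libraries and 10.2, 8.85 and 8.38 CPM in Con libraries. The groups were apart at both ages, with the narrower gap at 20 weeks between KO library 1 and Con library 3. Cdkn2d rose 2.56-fold at 28 weeks (log2 fold change 1.36, SE 0.18, edgeR adjusted p = 0.00603). At 20 weeks the log2 fold change was 0.92 (SE 0.256, adjusted p = 0.0614), which did not pass. It passed without KO library 1 (1.11, adjusted p = 0.0182), with DESeq2 (0.92, adjusted p = 0.00869) and without the low-count filter (0.96, adjusted p = 0.044). The average over both ages was 1.10 (SE 0.146, adjusted p = 0.000422), called in all 19 alternatives. Without KO library 1 of both ages the averages were 1.00 for Cdkn2c (adjusted p = 0.000893) and 1.24 for Cdkn2d (adjusted p = 0.000274). Cdkn2c lies at chr4:109660876-109667189 and Cdkn2d at chr9:21288410-21291407, both on the minus strand.

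The mesangial and smooth muscle marker sum was higher in all knockout libraries at both ages, the direction of Cdkn2c and Cdkn2d. Of the 11 markers 9 were called higher at 20 weeks, beside 4.79% of all genes. At 28 weeks 5 were called higher and 1 lower, beside 9.33% and 11.9% of all genes. Acta2, smooth muscle actin, was 4521 to 5704 CPM in 20W KO and 1598 to 1980 CPM in 20W Con, and 2353 to 6546 CPM in 28W KO and 1172 to 1199 CPM in 28W Con. Acta2 and Tagln made up most of these sums, and Tagln averaged 5920 CPM in 28W KO and 1580 CPM in 28W Con. Other markers on the list were not called at 28 weeks. These included Pdgfrb (log2 fold change 0.65, edgeR adjusted p = 0.578), Itga8 (0.45, adjusted p = 0.662), Cspg4 (0.058, adjusted p = 0.954) and Notch3 (-0.076, adjusted p = 0.953). The part of mesangial and smooth muscle cells in the Cdkn2c and Cdkn2d results was not tested.

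**Figure D2:**
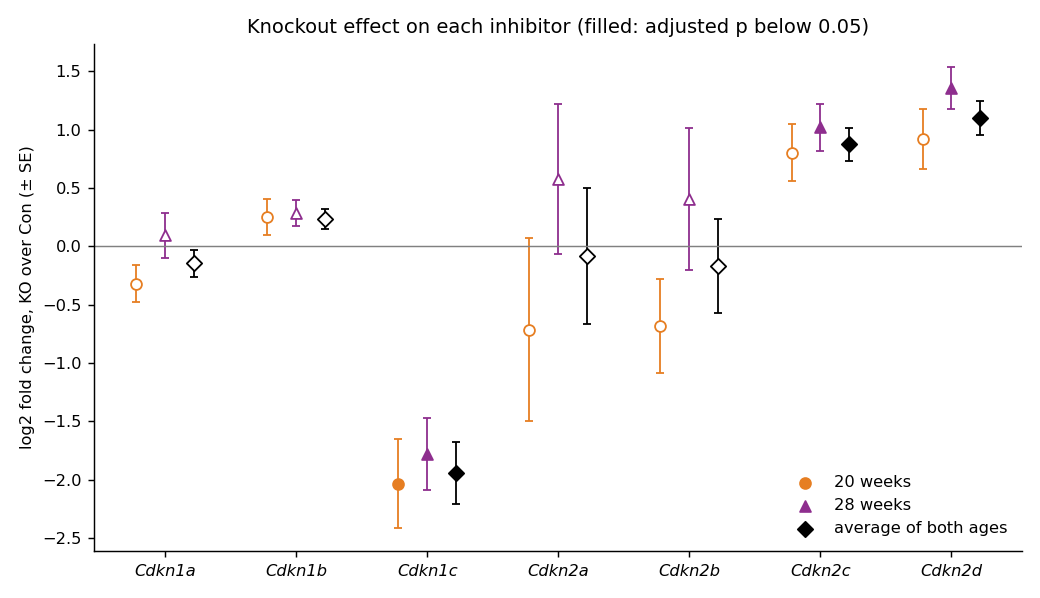
Knockout effect on each inhibitor as log2 fold change of KO over Con, with bars of 1 SE, at 20 weeks, at 28 weeks and averaged over both ages. Filled symbols have an edgeR adjusted p below 0.05. Cdkn1c is filled below 0 at both ages, Cdkn2c and Cdkn2d are filled above 0 at 28 weeks and in the average, and the bars of Cdkn2a and Cdkn2b are the longest.

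Cdkn2c and Cdkn2d had closely similar patterns over the 12 libraries, although they lie on different chromosomes. Their log2 CPM, each centred on its own mean over the 12 libraries, differed by a root mean square of 0.16, the smallest distance among the 21 pairs of members. The libraries share their genotype difference, so part of this likeness is the knockout effect itself. Within groups, Cdkn2d was 2.68 to 3.02 times Cdkn2c in FPKM in 20W KO and 2.25 to 2.95 times in 20W Con. It was 3.10 to 3.31 times Cdkn2c in 28W KO and 2.44 to 2.60 times in 28W Con. The 28W KO ratios lay above those of all other libraries. In 20W Con the genes did not move in step: Cdkn2c was lowest in library 2 (6.20 CPM) and Cdkn2d in library 1 (9.20 CPM). In each of the other groups the libraries had the same order in both genes.

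**Figure D3:**
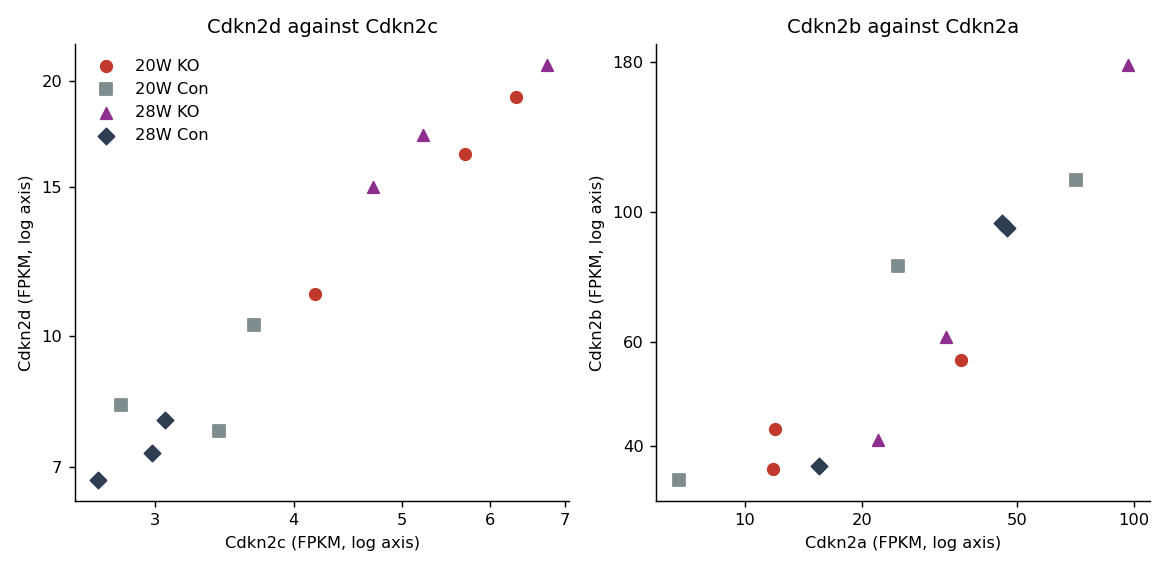
Left, Cdkn2d against Cdkn2c, and right, Cdkn2b against Cdkn2a, in FPKM on log axes, with 1 point per library and colours for the 4 groups. On the left all knockout libraries lie above and to the right of all controls. On the right the groups are mixed, and 28W KO library 1 is the highest point on both axes.

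Cdkn2a had the widest spread of the family, with an SD of 1.15 in log2 CPM over the 12 libraries, and most of it lay within groups. Cdkn2a had 42.3, 14.2 and 13.6 CPM in 20W KO libraries, against 7.15, 27.6 and 80.2 CPM in 20W Con libraries. At 28 weeks it had 113, 38.8 and 25.4 CPM in KO libraries and 17.6, 49.4 and 51.7 CPM in Con libraries. The lowest and the next to highest values of the series were both in 20W Con. The log2 fold change was -0.71 at 20 weeks (SE 0.783, edgeR adjusted p = 0.65) and 0.58 at 28 weeks (SE 0.642, adjusted p = 0.58). Single libraries set both signs: without 20W Con library 3 the first became 0.43, and without 28W KO library 1 the second became -0.34.

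Cdkn2b, whose protein p15 is induced by TGF-beta in many epithelia, had 81.0, 62.3 and 51.6 CPM in 20W KO libraries, against 45.4, 111 and 157 CPM in 20W Con libraries. Its 28-week levels were 257, 88.2 and 58.0 CPM in KO libraries and 51.5, 127 and 127 CPM in Con libraries. The groups overlapped at both ages. The log2 fold change was -0.68 at 20 weeks (SE 0.404, edgeR adjusted p = 0.351) and 0.40 at 28 weeks (SE 0.61, adjusted p = 0.695). The 28-week value became -0.51 without KO library 1. No direction can be given for either gene at this number of libraries.

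Both genes lie on the minus strand of chromosome 4, Cdkn2a at 89274471-89294653 and Cdkn2b at 89306299-89311039, with 11646 bases between them. They were high and low in largely the same libraries. Root mean square distances in centred log2 CPM are also small where genes vary little, as for Cdkn1a and Cdkn1b, at 0.326. For Cdkn2a and Cdkn2b the distance was 0.511, beside SDs of 1.15 and 0.767. Their proportion was not fixed: Cdkn2b had 1.91 to 4.39 times the counts of Cdkn2a in 20W KO and 1.96 to 6.35 times in 20W Con, against 2.27 to 2.29 times in 28W KO and 2.45 to 2.93 times in 28W Con. The spread of this ratio was thus wider at 20 weeks, in both genotypes. At 20 weeks the ratio was 1.91 in KO library 1 and 1.96 in Con library 3, the libraries highest in Cdkn2a in their groups. Cdkn2a is the divisor of this ratio, so a low ratio beside high Cdkn2a is not a separate result.

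Markers of other cells varied beside this locus. The 8 parietal epithelial markers, of the cells that line Bowman's capsule, summed to 1924, 613 and 612 CPM in 20W KO libraries 1 to 3 and to 1830, 4073 and 3095 CPM in 20W Con libraries. At 28 weeks they summed to 6562, 385 and 974 CPM in KO libraries and to 2261, 4702 and 4807 CPM in Con libraries. The sum of 28W KO library 1, the library highest in Cdkn2a and Cdkn2b, was 84.5% Krt8, a keratin that is also on the tubule list. Without Krt8 the parietal sums were 944, 558 and 552 CPM in 20W KO libraries and 1660, 2910 and 1620 CPM in 20W Con libraries, and 1020, 355 and 777 CPM in 28W KO libraries and 2150, 2350 and 2430 CPM in 28W Con libraries. Every knockout sum was then below every control sum of its age. Krt8 alone, singled out after its values were seen, had 980, 54.2 and 59.8 CPM in 20W KO libraries and 175, 1162 and 1471 CPM in 20W Con libraries, and 5542, 29.9 and 196 CPM in 28W KO libraries and 111, 2351 and 2375 CPM in 28W Con libraries. In 20W KO, 20W Con and 28W KO the library highest in Krt8 was also the highest in Cdkn2a and in Cdkn2b. In 28W Con the closely alike libraries 2 and 3 were nearly level in Krt8, Cdkn2a and Cdkn2b, and both were above library 1. By contrast, 28W KO library 2 had the lowest Krt8 of the series with an intermediate Cdkn2a level of 38.8 CPM. Pax2, a parietal transcription factor, was 5.11 to 12.0 CPM in 28W KO and 38.2 to 61.9 CPM in 28W Con. The 12 leukocyte markers summed to 252.5 to 445 CPM in 20W KO and 89.1 to 397 CPM in 20W Con, and to 628 to 845 CPM in 28W KO and 86.3 to 106 CPM in 28W Con, with up to 2 of them at 0 in a library. Lyz2, a lysozyme of macrophages and neutrophils, made up 46.9% to 92.9% of these sums. Without it they were 29.6 to 82.2 CPM in 20W KO and 36.1 to 196 CPM in 20W Con, and 60.1 to 132 CPM in 28W KO and 37.8 to 55.2 CPM in 28W Con. No leukocyte marker was called at 20 weeks, where 7 of the 10 tested had negative log2 fold changes. At 28 weeks 3 of 10 were called higher, beside 9.33% of all genes. Ptprc overlapped at 28 weeks, at 1.98 to 11.2 CPM in KO and 1.41 to 5.42 CPM in Con, and Csf1r had 4.64 to 10.4 CPM in 28W KO and 9.13 to 12.5 CPM in 28W Con. The control library highest in the sum with or without Lyz2, 20W Con library 3, was also highest among controls in Cdkn2a and Cdkn2b. The knockouts differed from this. The highest sum of the series, 845 CPM, was in 28W KO library 3, which had the lowest Cdkn2a and Cdkn2b of its group. In 20W KO the highest sum, 445 CPM, was in library 2, and the highest Cdkn2a and Cdkn2b were in library 1. Without Lyz2 the highest sums were in 20W KO library 1 (82.2 CPM) and 28W KO library 2 (132 CPM). The part of these cells in the Cdkn2a and Cdkn2b levels was not tested.

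**Figure D4:**
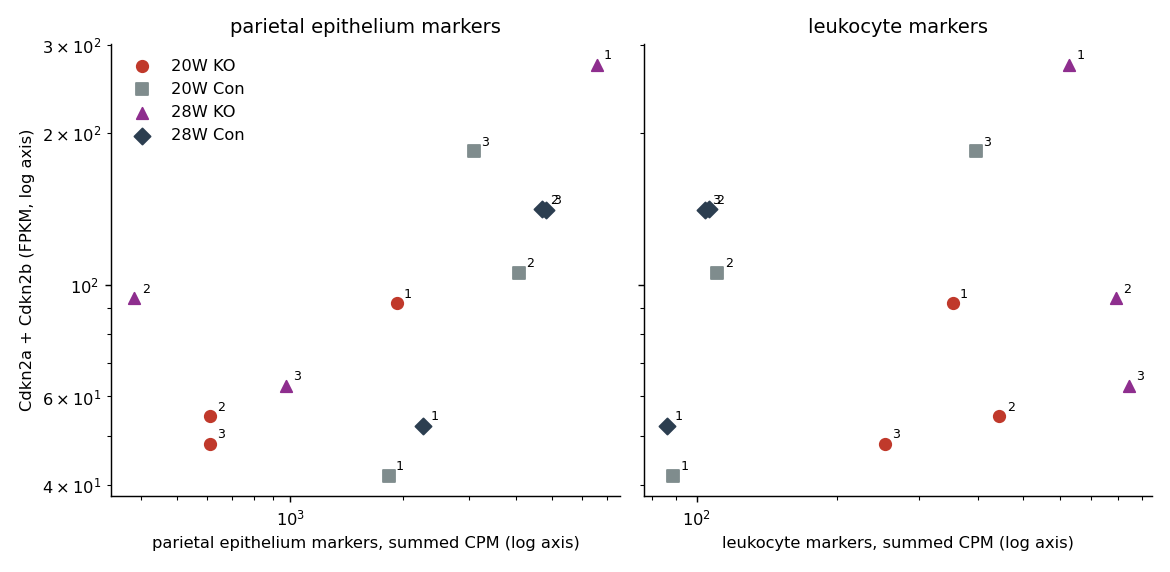
Summed FPKM of Cdkn2a and Cdkn2b against the summed CPM of parietal epithelial markers (left) and leukocyte markers (right), on log axes, with 1 point per library and its replicate number. In 28W KO library 1 the locus reaches 274 FPKM with 6562 CPM of parietal markers, while 28W KO library 2 has 94.2 FPKM with 385 CPM. Krt8 makes up 84.5% of the parietal sum of 28W KO library 1, and Lyz2 46.9% to 92.9% of the leukocyte sums.

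The knockout effect did not differ detectably between the ages for any member. The change of the effect from 20 to 28 weeks was called for 0 of the 7 members and for 0% of the 15662 genes tested with edgeR, where 1428 genes had an unadjusted p below 0.05 and DESeq2 called 25. The changes of the called members did not pass: 0.27 for Cdkn1c (SE 0.513, edgeR adjusted p = 0.85), 0.23 for Cdkn2c (SE 0.282, adjusted p = 0.77) and 0.45 for Cdkn2d (SE 0.29, adjusted p = 0.612). The change of Cdkn1a, 0.43 (SE 0.232), had an adjusted p of 0.576. Age in each genotype gave no call either. In KO, 28 weeks against 20 weeks called 0% of genes (1759 at an unadjusted p below 0.05, 36 with DESeq2). Cdkn2a, at 1.34 (SE 0.837, adjusted p = 0.512), and Cdkn2b, at 1.07 (SE 0.576, adjusted p = 0.474), had the largest of the 7 members' log2 differences there. In Con the same contrast called 0% of genes (466 at an unadjusted p below 0.05, 1 with DESeq2). The largest difference of a member there was that of Cdkn1a, -0.34 (SE 0.164, adjusted p = 1). Each age was deposited as its own table, so handling that differed between the tables cannot be told apart from age in these contrasts.

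The genes whose library-to-library pattern lay nearest to each member were found among 12276 genes, by the root mean square difference in centred log2 CPM over the 12 libraries. Nearest to Cdkn1a was Btg2, an antiproliferative gene and known p53 target, at 0.0779, with Ubfd1 at 0.102, where Cdkn1a itself had an SD of 0.225. Nearest to Cdkn1b were Lsm14a and Mtmr2, both at 0.0599. Nearest to Cdkn1c were Dctd, at 0.343, and Upp1, at 0.401, where Cdkn1c had an SD of 1.11. Dctd and Upp1 both encode enzymes of pyrimidine nucleotide metabolism. Nearest to Cdkn2a was Mfsd4b5, at 0.323, beside an SD of 1.15. For Cdkn2b they were Psph, an enzyme of serine synthesis, at 0.217, and Ctla2b, at 0.263, beside an SD of 0.767. For Cdkn2c they were Cdr2, at 0.102, and Hoxa10, at 0.113, beside an SD of 0.492. For Cdkn2d they were Gpr180, at 0.11, and Tcta, at 0.114, beside an SD of 0.618. The neighbours of Cdkn2c and of Cdkn2d were nearer to them than these members were to each other, at 0.16. These distances describe 12 libraries that share the genotype and age differences.

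Among the INK4 targets Cdk4 and Cdk6 and the D cyclins that activate them, 1 of 5 genes was called, the same cyclin at both ages. It was called lower, as were 5.13% of all genes at 20 weeks and 11.9% at 28 weeks. Ccnd1, cyclin D1, averaged 152 ± 33.0 CPM in 20W KO and 1120 ± 467 CPM in 20W Con (SD, n = 3 each). At 28 weeks it averaged 196 ± 161 CPM in KO and 1490 ± 28.7 CPM in Con (SD, n = 3 each). It fell by 2.88 on the log2 scale at 20 weeks (SE 0.331, edgeR adjusted p = 0.00349) and by 2.92 at 28 weeks (SE 0.64, adjusted p = 0.0229). Ccnd2 averaged 350 CPM in 20W KO and 257 CPM in 20W Con, and Cdk4 306 CPM in 20W KO and 339 CPM in 20W Con. Neither these nor Ccnd3 and Cdk6 passed at either age, and the list's median log2 fold change was -0.15 at 20 weeks and 0.06 at 28 weeks, beside 0.012 and 0.067 for all genes.

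The kinases and the E, A and B cyclins that CIP/KIP proteins bind were listed together with Cdk7, Ccnh and Mnat1. The latter form the kinase that activates the other cell cycle kinases and are not themselves CIP/KIP targets. Over all genes 4.79% were called higher and 5.13% lower at 20 weeks, and 9.33% and 11.9% at 28 weeks. Of the 11 genes on this list none was called at 20 weeks. At 28 weeks 1 was called higher, Cdk7, with a log2 fold change of 0.53 (SE 0.113, edgeR adjusted p = 0.0213), and no gene that CIP/KIP proteins bind was called. Of 17 pocket proteins, E2F factors and DREAM subunits none was called at 20 weeks, and at 28 weeks only E2f4, a repressor E2F of resting cells, was called, at -0.50 (SE 0.113, adjusted p = 0.0261). Of 15 tested genes that turn the inhibitor proteins over by ubiquitination, Rbx1, the RING subunit of cullin ligases, was called at 28 weeks at 0.36 (SE 0.0972, adjusted p = 0.0432) and none at 20 weeks. Of 8 further genes related to kinase inhibition, again with Cdkn2aip, Cdk5rap3 was called at 28 weeks at 0.42 (adjusted p = 0.0435). Of 20 proliferation genes none was called at 20 weeks, where their median was 0.23. At 28 weeks the median was -0.28 and 2 fell: Rrm2, a subunit of ribonucleotide reductase, by 0.71 (SE 0.144, adjusted p = 0.0181), and Mybl2, an activator of mitotic genes, by 0.92 (SE 0.2, adjusted p = 0.0221).

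Among regulators of the inhibitor genes, calls went both ways. Of 19 tested transcriptional regulators 1 rose and 2 fell at 20 weeks, beside 4.79% and 5.13% of all genes. At 28 weeks 1 rose and 6 fell, beside 9.33% and 11.9% of all genes. Myc, a repressor of Cdkn1a and Cdkn2b in other cells, averaged 38.8 ± 15 CPM in 20W KO and 91.8 ± 10.0 CPM in 20W Con, and 35.3 ± 10.8 CPM in 28W KO and 109 ± 13.4 CPM in 28W Con (SD, n = 3 each). It fell by 1.24 (edgeR adjusted p = 0.0277) and by 1.63 (adjusted p = 0.00684) on the log2 scale at 20 and 28 weeks. Smad3, which carries TGF-beta signals to the nucleus, fell by 1.03 (SE 0.254, adjusted p = 0.0414) at 20 weeks and by 1.61 (SE 0.167, adjusted p = 0.00351) at 28 weeks. Ets2, an activator of the p16 promoter in human fibroblasts, fell at 28 weeks by 1.16 (SE 0.147, adjusted p = 0.00554) and had a value of -0.38 (adjusted p = 0.42) at 20 weeks. The list's median was -0.01 at 20 weeks and -0.06 at 28 weeks.

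A list of 22 genes was made of polycomb genes, histone demethylases and DNA methyltransferases together with Cdkn2aip, which encodes an Arf-binding protein. Of these 1 rose at 20 weeks, beside 4.79% of all genes. At 28 weeks 2 rose and 4 fell, beside 9.33% and 11.9% of all genes. Ring1, a ubiquitin ligase of polycomb complex PRC1, rose by 0.76 (SE 0.163, edgeR adjusted p = 0.0257) at 20 weeks and by 0.53 (SE 0.123, adjusted p = 0.0269) at 28 weeks. Cbx8, a chromatin reader in PRC1, rose by 0.92 (SE 0.187, adjusted p = 0.0181) at 28 weeks, with 0.78 (adjusted p = 0.114) at 20 weeks. Phc1, another PRC1 subunit, fell by 0.94 (SE 0.192, adjusted p = 0.0183) at 28 weeks, with 0.16 (adjusted p = 0.83) at 20 weeks. The list's median log2 fold change was 0.08 at 20 weeks and -0.26 at 28 weeks.

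The p53 targets other than Cdkn1a were called in both directions, with more falls than rises. Of 18 genes 1 rose and 3 fell at 20 weeks, beside 4.79% and 5.13% of all genes. At 28 weeks 2 rose and 4 fell, beside 9.33% and 11.9% of all genes. Falls thus outnumbered rises over all genes too. The medians of the list were -0.44 at 20 weeks and -0.14 at 28 weeks. At 20 weeks 3 of the 18 had positive log2 fold changes, and at 28 weeks 9 did. In the knockout effect averaged over both ages 2 were called higher (12.1% of all genes) and 9 lower (16.5%). Fas, a death receptor, had 25.6 to 31.1 CPM in 20W KO and 6.92 to 8.37 CPM in 20W Con, and rose by 1.88 on the log2 scale (SE 0.191, edgeR adjusted p = 0.00273). At 28 weeks it rose by 2.66 (SE 0.387, adjusted p = 0.00705). Mdm2, the ubiquitin ligase of p53, fell by 0.97 (SE 0.154, adjusted p = 0.00948) at 20 weeks and had -0.30 (adjusted p = 0.185) at 28 weeks. Sesn2, a stress sensor upstream of mTOR, fell by 1.11 (SE 0.123, adjusted p = 0.00393) at 28 weeks and had -0.54 (adjusted p = 0.151) at 20 weeks. Cdkn1a thus did not pass at either age, while targets of the same factor were called in both directions, more of them lower.

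Senescence-associated genes were also called in both directions. Of 15 tested at 20 weeks 2 rose and 2 fell, beside 4.79% and 5.13% of all genes. Of 17 tested at 28 weeks 3 rose and 2 fell, beside 9.33% and 11.9% of all genes. The medians of the list were -0.22 at 20 weeks and 0.19 at 28 weeks. The 3 that rose at 28 weeks were Il1a (log2 fold change 3.01, edgeR adjusted p = 0.0223), Ccl2 (3.225, adjusted p = 0.0472) and Il6 (1.456, adjusted p = 0.0481). Those that fell were Gdf15 and Lmnb1, the latter by 0.81 (SE 0.12, adjusted p = 0.00726). A fall does not mean the same for every gene of the list, so these counts do not measure senescence. Gdf15, a secreted stress factor, averaged 149 ± 28.1 CPM in 20W KO and 324 ± 42.4 CPM in 20W Con, and 132 ± 14.3 CPM in 28W KO and 390 ± 48.1 CPM in 28W Con (SD, n = 3 each). It fell by 1.12 (edgeR adjusted p = 0.0125) at 20 weeks and by 1.57 (adjusted p = 0.00312) at 28 weeks. Igfbp3, which binds insulin-like growth factors outside the cell, rose by 1.90 (SE 0.18, adjusted p = 0.00273) at 20 weeks, with 1.49 (SE 0.496, adjusted p = 0.082) at 28 weeks. Igfbp7, a related binding protein, rose by 1.22 (SE 0.185, adjusted p = 0.00805) at 20 weeks, with 0.69 (adjusted p = 0.32) at 28 weeks. The leukocyte marker Lyz2 was 505 to 785 CPM in 28W KO and 48.4 to 51.1 CPM in 28W Con, and the part of leukocytes in the senescence list, which holds cytokines, was not tested.

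**Figure D5:**
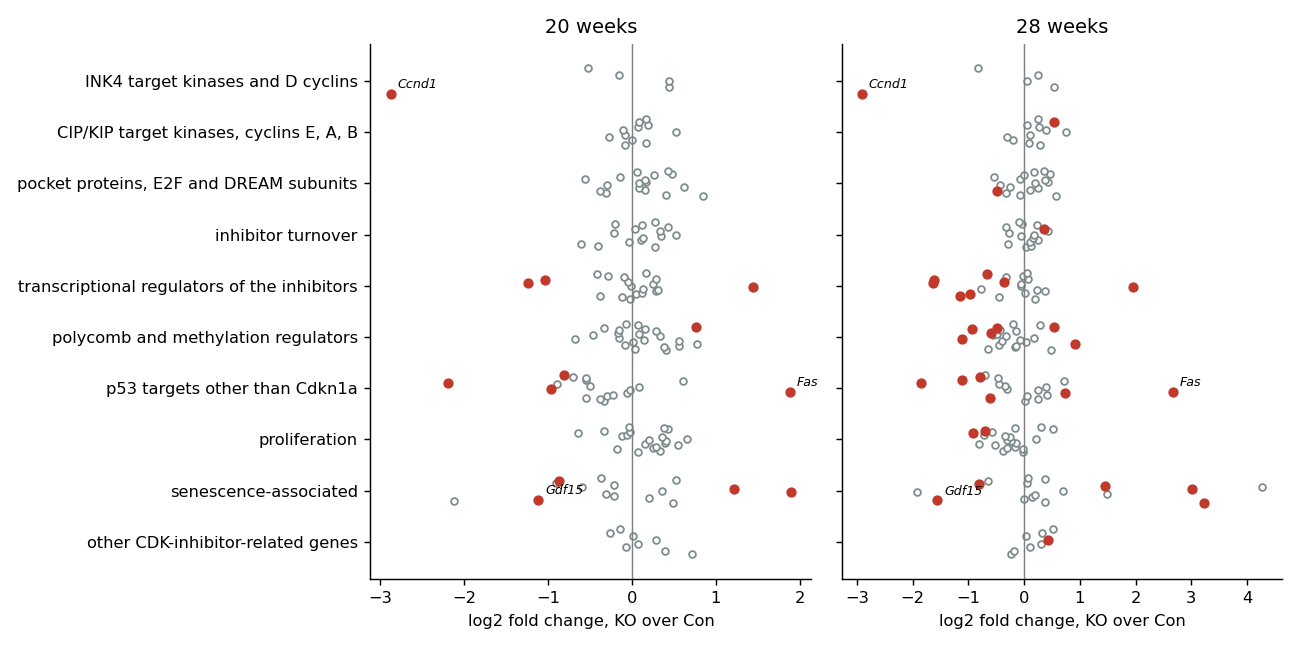
Log2 fold change of KO over Con for every tested gene of 10 lists around the inhibitors, at 20 weeks (left) and 28 weeks (right). Each point is a gene, and filled points have an edgeR adjusted p below 0.05. Ccnd1 lies at -2.88 and -2.92 at 20 and 28 weeks, and the p53 and senescence lists hold called genes on both sides.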

How the data were processed

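The authors deposited raw read counts per gene symbol and FPKM values for each age, per the file headers; genome build GRCm38 (mm10) is named in the submitters' processing notes. Per the labels' protocols, total RNA went into a SMARTER mRNA library kit. The aligner, counter, strand setting and annotation were not given in the sources used here.

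Deposited counts were tested with edgeR 4.0.16 (R 4.3.3): TMM scaling, filterByExpr, quasi-likelihood F test, each age alone, n = 3 per group, Benjamini-Hochberg adjustment over all genes tested, called below 0.05. All adjusted p-values are from this test unless DESeq2 (1.42.0) is named. Contrasts across ages came from 1 model of 12 libraries. SE is the log2 fold change over the square root of F. CPM used TMM library sizes; a count of 0 allows up to 0.0769 to 0.0955 CPM (3 counts, counting error only). Alternatives were other scaling, filters, DESeq2, limma 3.58.1 on log2(FPKM + 0.1) and log2(FPKM + 1), a replicate block and leaving out each library. The edgeR step was tested on simulated counts.

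The members and gene lists were chosen with earlier results of these data known. Of each pathway list, the text names up to 3 called genes with the smallest p at either age, and for each member the 2 genes of nearest pattern. A gene that met this rule is not reported here.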

Additional observations from a re-analysis of the deposited data

How the results depend on the processing

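The averaged knockout effects of Cdkn1c, Cdkn2c and Cdkn2d kept their direction and their call in all 19 alternatives, and no called value changed sign in any alternative. Within an age, leaving out 1 library ended the calls of Cdkn1c at 20 weeks and Cdkn2c at 28 weeks, while those of Cdkn1c and Cdkn2d at 28 weeks held. Leaving out 1 library at a time gave log2 fold changes of -2.30 to -1.51 for Cdkn1c and 0.67 to 0.96 for Cdkn2c and 0.74 to 1.11 for Cdkn2d at 20 weeks, and 0.83 to 1.09 for Cdkn2c at 28 weeks. At 20 weeks Cdkn2c and Cdkn2d passed with DESeq2 (0.81 and 0.92) and in the model of 12 libraries (0.76 and 0.87), and Cdkn2d without a filter (0.96). At 28 weeks Cdkn2c did not pass with Con libraries 2 and 3 summed (0.98). Correlations of same-numbered KO and Con deviations were -0.1, 0.324 and -0.171 at 20 weeks and -0.566, -0.105 and -0.471 at 28 weeks. Differently numbered pairs ran from -0.367 to 0.416 at 20 weeks and from -0.479 to 0.577 at 28 weeks. Deviations from means of 3 libraries are tied to each other, so these values cannot settle whether the replicate number pairs the libraries. With the number as a replicate block, the 28-week values of Cdkn1c (-1.87, adjusted p = 0.0628), Cdkn2c (1.00, adjusted p = 0.0865) and Cdkn2d (1.35, adjusted p = 0.0537) did not pass. The block called 332 genes at 28 weeks instead of 3183, and it uses up residual degrees of freedom.

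Genes called at 20 weeks numbered 1473, against 2401 with DESeq2 and 517 to 2023 with 1 library left out. At 28 weeks they numbered 1299 with Con libraries 2 and 3 summed and 1266 to 3374 with 1 library left out. DESeq2 called 25 genes for the change of the effect, 36 for age in KO and 1 for age in Con, and leaving out a library gave 0 to 4 for age in KO.

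Signs turned only for values that did not pass in any alternative. With 1 library left out, Cdkn2a ran from -1.46 to 0.43 at 20 weeks, -0.34 to 0.88 at 28 weeks and -0.52 to 0.48 on average, Cdkn2b from -0.51 to 0.70 at 28 weeks and -0.59 to 0.032 on average, and Cdkn1a from -0.11 to 0.24 at 28 weeks. For the change of the effect they ran from -0.036 to 0.14 for Cdkn1b and -0.24 to 0.50 for Cdkn1c. For age in Con they ran from -0.012 to 0.077 for Cdkn1b, -0.18 to 0.56 for Cdkn1c, -0.41 to 1.21 for Cdkn2a and -0.37 to 0.40 for Cdkn2b. For age in KO they ran from -0.083 to 0.15 for Cdkn1a, -0.0055 to 0.16 for Cdkn1b, -0.13 to 0.56 for Cdkn1c and -0.16 to 0.18 for Cdkn2c. Without KO library 1 of both ages the age difference in KO was -0.050 for Cdkn1b, -0.33 for Cdkn1c, -0.11 for Cdkn2c and -0.019 for Cdkn2d, and the change of the effect was -0.078 for Cdkn1b and -0.39 for Cdkn1c. Without a filter the change of Cdkn1b was -0.025 and the age difference of Cdkn2b in Con 0.00029. With Con libraries 2 and 3 summed, Cdkn2a had -0.13 for age in Con and 0.024 on average. The cause of these changes was not tested.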

Other observations

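Genes next to the members along the chromosome were looked up after the members' values had been seen, up to 2 on either side. Cdkn1c lies in an imprinted cluster, and the 3 of its neighbours that could be tested had lower means in knockouts at both ages, not all past the test. Kcnq1, a potassium channel gene 31297 bases away, averaged 0.21 CPM in 28W KO and 15.2 CPM in 28W Con (log2 fold change -6.17, SE 0.822, edgeR adjusted p = 0.00607). At 20 weeks Kcnq1 averaged 1.89 CPM in KO and 5.81 CPM in Con and did not pass (-1.62, adjusted p = 0.432). Phlda2, an imprinted growth restrainer, averaged 0.0276 CPM in 20W KO and 1.55 CPM in 20W Con (adjusted p = 0.0108), and 0.135 CPM in 28W KO and 1.59 CPM in 28W Con (adjusted p = 0.029). The 20W KO mean is below the level of 3 counts. Slc22a18, a transporter gene 12686 bases away, averaged 1.21 CPM in 28W KO and 7.23 CPM in 28W Con (-2.57, adjusted p = 0.0289), with -0.64 (adjusted p = 0.679) at 20 weeks.

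Next to Cdkn2d, which was higher in knockouts, lies Ap1m2, which encodes an adaptor subunit of epithelial cells, 2868 bases away. Ap1m2 averaged 4.13 CPM in 20W KO and 85.2 CPM in 20W Con (log2 fold change -4.36, SE 0.586, edgeR adjusted p = 0.00557), and 18.5 CPM in 28W KO and 96.2 CPM in 28W Con (-2.38, SE 1.12, adjusted p = 0.188). On its other side Kri1, 441 bases away, fell at 28 weeks by 0.53 (SE 0.117, adjusted p = 0.0228) and had -0.05 (adjusted p = 0.902) at 20 weeks. Faf1, 9399 bases from Cdkn2c, had 0.35 (adjusted p = 0.254) at 20 weeks and 0.26 (adjusted p = 0.18) at 28 weeks. Mtap, 93390 bases from Cdkn2a, had -0.32 (adjusted p = 0.331) at 20 weeks and 0.02 (adjusted p = 0.959) at 28 weeks.

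Near Cdkn1a, Cpne5 averaged 0.0369 CPM in 20W KO and 0.53 CPM in 20W Con (edgeR adjusted p = 0.0448), and 0.0491 CPM in 28W KO and 1.04 CPM in 28W Con (adjusted p = 0.0117), and Rab44 averaged 0.0214 CPM in 28W KO and 0.359 CPM in 28W Con (adjusted p = 0.0131). These knockout means also lie below the level of 3 counts. No tested neighbour of Cdkn1b or Cdkn2c passed at either age.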
